A study of Mus musculus with 14 samples.

Results

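The cohesin ring and the synaptonemal complex are built from the genes described here. The mRNAs of these genes were followed in full-grown mouse oocytes with loss of the small RNA enzymes AGO2 or DICER. Other oocytes carried a catalytically inactive AGO2, and control oocytes were included. The genes were chosen by name and function, with earlier results of these data already known. They were the meiotic cohesin genes Rec8, Stag3, Smc1b and Rad21l, and the cohesin genes Smc3 and Rad21, which are used in mitosis as well. The others were the synaptonemal complex genes Sycp1, Sycp2 and Sycp3. Of these 9 genes, 8 had a row in the count files, among 20337 genes with a symbol. Rad21l was not analysed here. Of the 8 genes, 7 passed the filter on low counts in every comparison, and Rec8 did not.

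The 14 RNA-seq libraries each came from 20 oocytes pooled from 3 mice by the labels, still arrested at the germinal vesicle stage, and in every group from females 4 to 6 weeks old that had received 5 IU of eCG 48 h earlier. The Ago2 series held 3 libraries of Ago2 fl/fl oocytes, which carry floxed alleles and no Cre, 3 of Ago2 ADH oocytes and 2 of Ago2 null oocytes. Ago2 ADH females are Ago2 fl/ADH with a Cre driven by the oocyte-specific Zp3 promoter, so that their oocytes keep a single allele that encodes a catalytically inactive AGO2. Ago2 null females are Ago2 fl/fl with the same Cre. The Dicer series held 3 libraries of Dicer WT oocytes and 3 of oocytes with an oocyte-specific deletion of Dicer (Dicer KO). The Zp3 promoter becomes active in growing oocytes, after chromosomes have paired and recombined, and the promoter behind the Dicer deletion is not given in the sources used here. The study's methods describe a separate collection of oocytes for each replicate, while the labels do not say which mice gave which library, and the p-values measure the spread between these libraries.

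Cohesin is a ring of an SMC1 protein, SMC3 and a kleisin, with a STAG protein bound to the kleisin, and it holds sister chromatids together. In meiosis SMC1B stands in for SMC1A, REC8 and RAD21L for RAD21, and STAG3 for STAG1 and STAG2. SYCP2 and SYCP3 form the lateral elements along each chromosome axis and SYCP1 forms the transverse filaments that zip paired axes together. In female mice the synaptonemal complex forms before birth and is taken down around birth, whereas cohesin containing REC8 stays on the chromosomes until the divisions of meiosis. The libraries were taken long after that, from oocytes that were still arrested in prophase I.

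Windows upstream of the transcription start were available from RefSeq (assembly GRCm38.p6) for 8 of the genes. The 4 shown are those of the 3 genes with the largest differences between mutant and control oocytes, Stag3, Sycp1 and Sycp3, and that of Smc1b for contrast. Each run gives the 250 bases before the annotated start, 5′ to 3′ on the strand of the gene, with every match to CACGTG, the E-box read by proteins such as MAX, or to GCGGGAA, a motif of the E2F family, in capitals on either strand (the reverse complement of GCGGGAA is TTCCCGC). Proteins of both families sit in a repressor complex that silences germline genes in somatic cells. Stag3 is shown from chr5:138280259-138280508 (plus strand), Smc1b from chr15:85131958-85132207 (minus strand), Sycp1 from chr3:102936101-102936350 (minus strand) and Sycp3 from chr10:88459337-88459586 (plus strand).
Stag3: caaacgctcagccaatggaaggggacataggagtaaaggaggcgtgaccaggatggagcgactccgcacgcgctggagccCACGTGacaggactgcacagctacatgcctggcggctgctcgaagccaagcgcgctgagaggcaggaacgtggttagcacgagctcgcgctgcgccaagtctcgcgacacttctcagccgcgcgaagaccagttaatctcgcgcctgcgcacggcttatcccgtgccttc
Smc1b: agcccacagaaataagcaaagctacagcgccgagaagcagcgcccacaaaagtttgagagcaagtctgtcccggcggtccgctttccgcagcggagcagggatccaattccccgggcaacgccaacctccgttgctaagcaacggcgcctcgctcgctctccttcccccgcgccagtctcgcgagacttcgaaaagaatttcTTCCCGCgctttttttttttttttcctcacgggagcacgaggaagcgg
Sycp1: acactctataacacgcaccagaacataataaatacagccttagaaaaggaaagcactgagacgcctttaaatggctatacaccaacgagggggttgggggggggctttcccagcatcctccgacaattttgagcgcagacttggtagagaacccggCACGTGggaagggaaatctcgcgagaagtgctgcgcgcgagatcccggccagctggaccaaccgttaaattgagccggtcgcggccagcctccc
Sycp3: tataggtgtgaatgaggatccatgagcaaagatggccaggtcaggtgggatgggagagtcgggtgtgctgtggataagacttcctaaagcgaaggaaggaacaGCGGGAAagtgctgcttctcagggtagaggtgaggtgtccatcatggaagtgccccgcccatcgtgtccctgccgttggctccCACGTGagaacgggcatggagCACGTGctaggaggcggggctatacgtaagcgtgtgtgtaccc

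CACGTG occurred in 3 of the 8 windows of 300 bases (250 before and 50 after the start), those of Stag3, Sycp1 and Sycp3, against 7.15% of all 32851 windows of that length. GCGGGAA occurred in 3 of the 8, those of Stag3, Smc1b and Sycp3, against 4.60% of all windows. The match in Stag3 began 3 bases before the start and ran across it, so it is not capitalised above. The windows of Rec8, Smc3, Sycp2 and Rad21l held neither motif, and Rad21 had no window. Among 41 other meiotic chromosome genes with a window, 9 held CACGTG (22.0%) and 12 held GCGGGAA (29.3%). Of these 9 with CACGTG, Hormad1, Tex12 and Rec114 were higher in Ago2 ADH oocytes and Sgo1 was lower. Espl1, Syce2 and Mau2 did not pass the threshold used below, and Six6os1 and Rnf212 were not tested. Hormad2, Ccnb1ip1 and Pttg1 held neither motif and were higher. A match is a description of the letters and was not tied to any binding. Its relation to the differences between groups was not tested.

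Between genes, levels were compared per length, as RPKM (read counts scaled for depth and transcript length) after TMM scaling within each series. In Ago2 fl/fl oocytes Smc3 was the highest, with 55.4 ± 0.964 RPKM (SD, n = 3), followed by Sycp3 with 39.9 ± 5.28, Rad21 with 28.3 ± 0.422, Sycp2 with 16.7 ± 0.904, Smc1b with 7.61 ± 0.568, Sycp1 with 5.15 ± 0.523 and Stag3 with 0.977 ± 0.0312. The library ranges of neighbours in this order did not overlap. Smc3 stood above 93.4% of the 17105 genes detected in this group and Stag3 above 43.8%. The order was the same in Dicer WT oocytes, again with Smc3 first (67.8 ± 5.32 RPKM) and Stag3 last of those above the filter (1.08 ± 0.141), and again with no overlap between neighbours.

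In all 3 mutant groups Sycp3 was first instead of Smc3, with 101 ± 18.7 RPKM in Ago2 ADH, 96.3 ± 7.50 (n = 2) in Ago2 null and 147 ± 12.4 in Dicer KO oocytes. Sycp1 stood above Smc1b in each of them, with 10.7 ± 1.28 against 6.48 ± 0.626 RPKM for Ago2 ADH. Among the Ago2 null libraries Sycp1 (10.7 and 14.4 RPKM) and Sycp2 (13.4 and 13.1 RPKM) were neighbours whose ranges overlapped, as they did in Dicer KO oocytes (16.7 to 18.8 for Sycp1 and 16.9 to 17.9 for Sycp2).

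Rec8, the kleisin of meiotic cohesin that separase cuts at anaphase, was at or under the limit of detection. Its transcript had 0 reads in 12 libraries and 1 read in 2, the library Dicer WT replicate 3 and the library Dicer KO replicate 1. A count of 0 allows up to 3 counts, which is 0.0515 to 0.102 CPM (read counts scaled for depth) at the depth of these libraries. Rad21, the kleisin of mitotic cohesin, was at least 435-fold higher per length than that limit in each of the 12 libraries without a Rec8 read. No difference of Rec8 between groups was detectable at this depth, and limits of this kind cover counting error only.

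**Figure D1:**
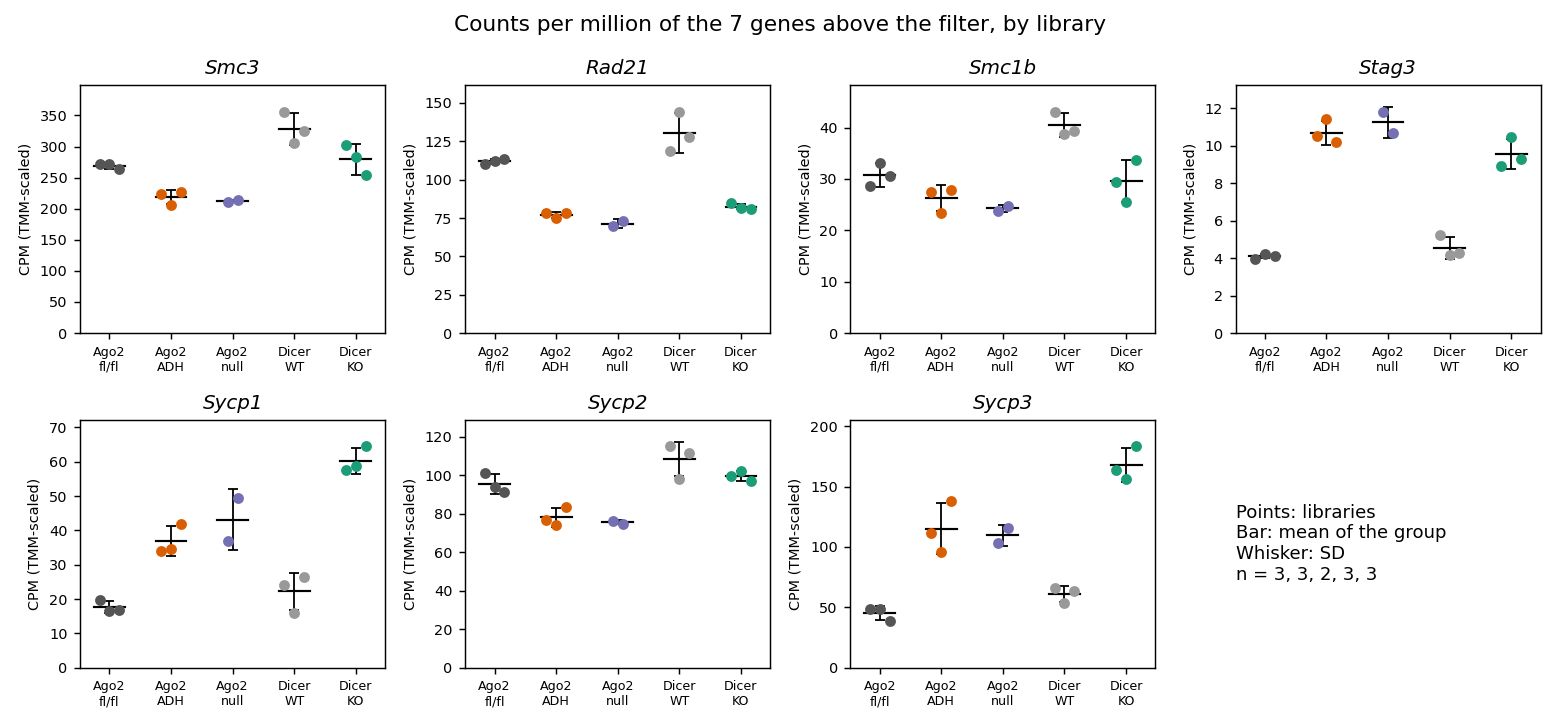
CPM (TMM-scaled within the Ago2 or the Dicer series, each axis from 0) of the 7 genes in each library, with 1 point per library, a bar at the mean and a whisker of 1 SD. Stag3, Sycp1 and Sycp3 lie higher in every mutant library than in the control libraries of the same series, and Rad21, Smc3 and Smc1b lie lower, Smc3 only just so in Dicer KO and Smc1b in Ago2 ADH.

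Within a gene, libraries were compared in CPM, with TMM scaling inside the Ago2 series or the Dicer series. Differences were tested with edgeR's quasi-likelihood test on all transcripts that passed the filter, with Benjamini-Hochberg adjusted p-values (FDR) and a threshold of 1%. In Ago2 ADH against Ago2 fl/fl oocytes 6 of the 7 tested genes passed, 3 higher and 3 lower, where 40.7% of all 18835 transcripts tested passed (20.5% higher, 20.1% lower). In Ago2 null against the same Ago2 fl/fl libraries all 7 passed, 3 higher and 4 lower, beside 37.2% of 19236 transcripts (18.1% higher, 19.1% lower). In Dicer KO against Dicer WT oocytes 5 passed, 3 higher and 2 lower, beside 34.5% of 18570 transcripts (16.7% higher, 17.8% lower). The median log2 fold change of the 7 genes was -0.22, -0.34 and -0.11 in the 3 comparisons, and that of all transcripts tested was 0.01, 0.00 and 0.00. In pooled libraries fewer oocytes with a transcript and less of it per oocyte cannot be told apart.

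Stag3, the STAG subunit found in meiotic cohesin only, rose in all 3 mutants. It was at 3.98, 4.24 and 4.12 CPM in the Ago2 fl/fl libraries, at 10.5, 11.4 and 10.2 in Ago2 ADH, and at 11.8 and 10.7 in Ago2 null. Every mutant library was above every control library. The fitted increase was 2.62-fold in Ago2 ADH (log2 fold change 1.39, SE 0.12, edgeR FDR 2.16e-08) and 2.74-fold in Ago2 null (1.45, SE 0.14, FDR 1.98e-07). Among the Dicer libraries Stag3 was at 5.24, 4.17 and 4.25 CPM in WT and at 8.93, 10.5 and 9.29 in KO, again without overlap, a 2.12-fold increase (1.08, SE 0.17, edgeR FDR 3.14e-05). The gene has 34 exons at chr5:138280526-138312393, and its counts (216 to 250 in Ago2 fl/fl, 428 to 614 in Ago2 ADH) were the lowest of the 7.

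Rad21, the kleisin that also serves mitotic cohesin, fell in all 3 mutants. The Ago2 fl/fl libraries held 110, 112 and 114 CPM, the Ago2 ADH libraries 78.0, 74.9 and 78.5, and the Ago2 null libraries 69.5 and 73.3. The mutant and control libraries did not overlap, and the SD in Ago2 fl/fl was 1.67 CPM. The fitted change was 1.44-fold lower in Ago2 ADH (log2 fold change -0.53, SE 0.05, edgeR FDR 1.23e-07) and 1.57-fold lower in Ago2 null (-0.65, SE 0.06, FDR 3.46e-07). For DICER loss, Rad21 was at 119, 144 and 128 CPM in WT and 84.5, 81.8 and 80.9 in KO, 1.57-fold lower (-0.65, SE 0.07, edgeR FDR 6.95e-07).

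Smc3, the SMC subunit common to every cohesin, fell in the Ago2 mutants and was not called in Dicer KO. It was at 271, 271 and 263 CPM in Ago2 fl/fl, 223, 205 and 226 in Ago2 ADH, and 211 and 214 in Ago2 null, all below the controls. The log2 fold change was -0.29 (SE 0.05, edgeR FDR 7.38e-05) in Ago2 ADH and -0.34 (SE 0.05, FDR 8.31e-05) in Ago2 null. In the Dicer series WT libraries held 356, 305 and 325 CPM and KO libraries 303, 283 and 254. The lowest WT library and the highest KO library were almost level, and the log2 fold change of -0.22 (SE 0.07) had an edgeR FDR of 0.0184.

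Smc1b, the SMC1 subunit of meiotic cohesin, fell in Ago2 null and Dicer KO oocytes and was not called in Ago2 ADH. It was at 28.6, 33.1 and 30.7 CPM in Ago2 fl/fl, 27.5, 23.3 and 27.9 in Ago2 ADH, and 23.8 and 24.8 in Ago2 null. The log2 fold change was -0.22 (SE 0.09, edgeR FDR 0.0387) in Ago2 ADH, which did not pass, and -0.34 (SE 0.09, FDR 0.00493) in Ago2 null, which did. The Ago2 null call ended without Ago2 fl/fl replicate 2 (FDR 0.0373), without Ago2 fl/fl replicate 3 (FDR 0.0171), without Ago2 null replicate 1 (FDR 0.0328) and without Ago2 null replicate 2 (FDR 0.0122). With 1 Ago2 null library left out, the other stands alone against 3 controls, and it is assumed to vary as the controls do. In the Dicer series the WT libraries held 43.1, 38.8 and 39.4 CPM and the KO libraries 29.5, 25.6 and 33.7, all below the controls, with a log2 fold change of -0.43 (SE 0.10, edgeR FDR 0.00145) that missed the threshold without Dicer KO replicate 2 (FDR 0.0145). Smc1b and Rad21 both lie on chromosome 15, as does Ago2 itself, and any part of that position in their levels was not tested.

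Sycp3, a lateral element protein that coats the chromosome axis, rose the most by CPM. The Ago2 fl/fl libraries held 49.0, 48.8 and 38.5 CPM, the Ago2 ADH libraries 112, 95.8 and 138, and the Ago2 null libraries 104 and 116. Each mutant library was well above the highest control. The increase was 2.55-fold in Ago2 ADH (log2 fold change 1.35, SE 0.11, edgeR FDR 3.76e-09) and 2.41-fold in Ago2 null (1.27, SE 0.09, FDR 6.54e-09). In the Dicer series Sycp3 was at 66.2, 53.9 and 63.3 CPM in WT and 164, 156 and 183 in KO, 2.77-fold higher (1.47, SE 0.08, edgeR FDR 3.08e-11). Of its 1139 transcript bases, 535 overlap exons of any Chpt1 transcript on the opposite strand (GENCODE vM21). Counting ignored strand, so reads from the shared bases cannot be assigned to a gene by their strand. Whether the Chpt1 transcript counted here holds these bases was not checked. The Chpt1 transcript held 212 to 663 counts per library against 2017 to 6610 for Sycp3, and its own log2 fold change was 0.86 in Ago2 ADH, 0.92 in Ago2 null and 1.23 in Dicer KO, each with an FDR below the threshold.

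Sycp1, the transverse filament protein, rose as well. It was at 19.8, 16.6 and 16.7 CPM in Ago2 fl/fl, 34.1, 34.5 and 41.9 in Ago2 ADH, and 36.8 and 49.4 in Ago2 null. No mutant library reached down to the controls, although the pair of Ago2 null libraries differed by more than the 3 Ago2 ADH libraries did. The increase was 2.09-fold in Ago2 ADH (log2 fold change 1.07, SE 0.10, edgeR FDR 2.76e-08) and 2.44-fold in Ago2 null (1.28, SE 0.11, FDR 1.01e-07). In the Dicer libraries Sycp1 was at 24.1, 16.0 and 26.5 CPM in WT and 57.5, 58.6 and 64.5 in KO, a 2.74-fold increase (1.45, SE 0.13, edgeR FDR 2.98e-08).

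Sycp2, the partner of SYCP3 in the lateral element, went the other way in the Ago2 mutants. It was at 101, 94.0 and 91.3 CPM in Ago2 fl/fl, 76.8, 74.2 and 83.6 in Ago2 ADH, and 76.4 and 74.9 in Ago2 null, without overlap. The log2 fold change was -0.28 (SE 0.06, edgeR FDR 8.54e-04) in Ago2 ADH and -0.34 (SE 0.07, FDR 5.78e-04) in Ago2 null. In the Dicer series WT libraries held 115, 98.2 and 111 CPM and KO libraries 99.6, 102 and 96.8, which overlapped, and the log2 fold change was -0.11 (SE 0.07, edgeR FDR 0.228).

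**Figure D2:**
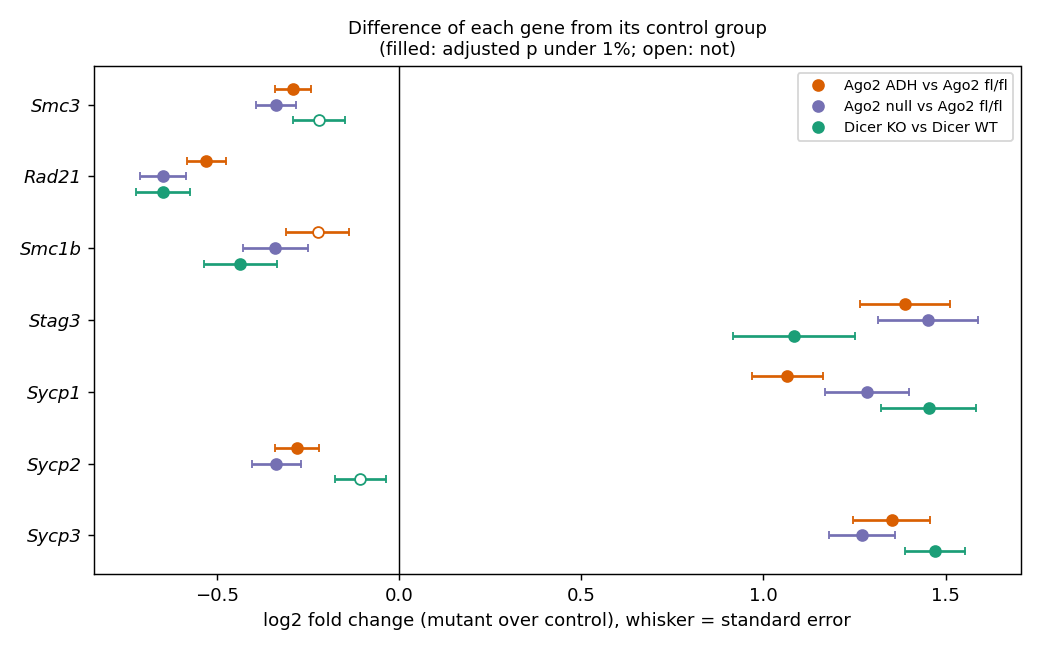
Log2 fold change of each gene over its control group (horizontal axis) with a whisker of 1 standard error, for the 3 mutant comparisons. Stag3, Sycp1 and Sycp3 lie between 1.07 and 1.47, and the other genes between -0.65 and -0.11, with open symbols where the FDR did not pass 1%.

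The Ago2 ADH and Ago2 null comparisons share their Ago2 fl/fl libraries, so they are not independent of each other. The increases of Stag3, Sycp1 and Sycp3 and the decrease of Rad21 passed under each of the 15 or 16 alternative settings run per comparison. These include leaving out each library in turn, which for Ago2 null leaves a single mutant library with the spread taken from the controls.

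To ask whether the catalytically inactive protein and the absence of the protein differ, Ago2 ADH was compared directly with Ago2 null. None of the 7 genes passed with edgeR or with DESeq2, where 0.119% of 19306 transcripts passed with edgeR. An unadjusted edgeR p under 0.05 was held by 0 of the 7 genes, beside 1931 of the 19306 transcripts. The log2 difference (Ago2 ADH minus Ago2 null) ranged from -0.24 (SE 0.12) for Sycp1 to 0.10 (SE 0.07) for Rad21. An interval of 2 standard errors to each side ran from -0.34 to 0.17 for Stag3, from -0.47 to 0.00 for Sycp1 and from -0.15 to 0.28 for Sycp3. With 3 against 2 libraries the comparison leaves room for differences of that size.

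To ask whether loss of AGO2 activity and loss of DICER differ, the Ago2 ADH effect minus the Dicer KO effect was tested as an interaction. The Ago2 and Dicer series were sequenced apart, and each Ago2 genotype had a lane of its own. A difference between the effects therefore cannot be told apart from one of lane or series. None of the 7 genes passed with edgeR or with DESeq2, where 3.55% of 19500 transcripts passed with edgeR. An unadjusted edgeR p under 0.05 was held by 2 of the 7 genes, beside 4550 of the 19500 transcripts. The 2 genes were Sycp1, with a log2 difference of -0.44 (SE 0.18, edgeR FDR 0.138), and Sycp2, with -0.23 (SE 0.10, FDR 0.151). For Stag3 the interval of 2 standard errors ran from -0.14 to 0.65, for Sycp3 from -0.47 to 0.13 and for Rad21 from -0.11 to 0.25. Smc3 and Sycp2 were called in Ago2 ADH and not in Dicer KO. The interval of their difference ran from -0.30 to 0.059 for Smc3 and from -0.42 to -0.035 for Sycp2, and neither difference passed after adjustment.

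Levels of partner genes were then set against each other within each library, per length and without a test. The ratio of Smc1b to its mitotic counterpart Smc1a was 0.646 ± 0.0581 (SD, n = 3) in Ago2 fl/fl, 0.544 ± 0.0616 in Ago2 ADH, 0.509 ± 0.0237 (n = 2) in Ago2 null, 0.759 ± 0.0463 in Dicer WT and 0.544 ± 0.110 in Dicer KO. Smc1a itself did not pass in any of the 3 mutant comparisons, with log2 fold changes from 0.00 to 0.06. The ratio was lower in every Ago2 mutant library than in every control library, narrowly so in Ago2 ADH (highest 0.586, lowest control 0.587), and in every Dicer KO library (highest 0.658) than in Dicer WT (lowest 0.716).

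Stag3 made up 7.81% ± 0.230 of the summed level of Stag1, Stag2 and Stag3 in Ago2 fl/fl oocytes, 18.6% ± 1.17 in Ago2 ADH, 18.5% ± 2.43 in Ago2 null, 6.24% ± 0.469 in Dicer WT and 17.9% ± 0.825 in Dicer KO. The mutant and control libraries stood far apart. Each gene stands here as 1 transcript, and with all transcripts of a gene summed the share was 4.05% in Dicer WT and 12.7% in Dicer KO. The ratio of Sycp3 to Sycp2 was 2.38 ± 0.247 in Ago2 fl/fl, 7.36 ± 0.907 in Ago2 ADH, 7.28 ± 0.670 in Ago2 null, 2.83 ± 0.0685 in Dicer WT and 8.47 ± 0.943 in Dicer KO, so the balance between these lateral element mRNAs differed as well. The ratio of Smc3 to Rad21 went from 1.96 ± 0.0606 in Ago2 fl/fl to 2.31 ± 0.0623 in Ago2 ADH and 2.43 ± 0.0719 in Ago2 null, and from 2.08 ± 0.361 in Dicer WT to 2.77 ± 0.189 in Dicer KO.

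**Figure D3:**
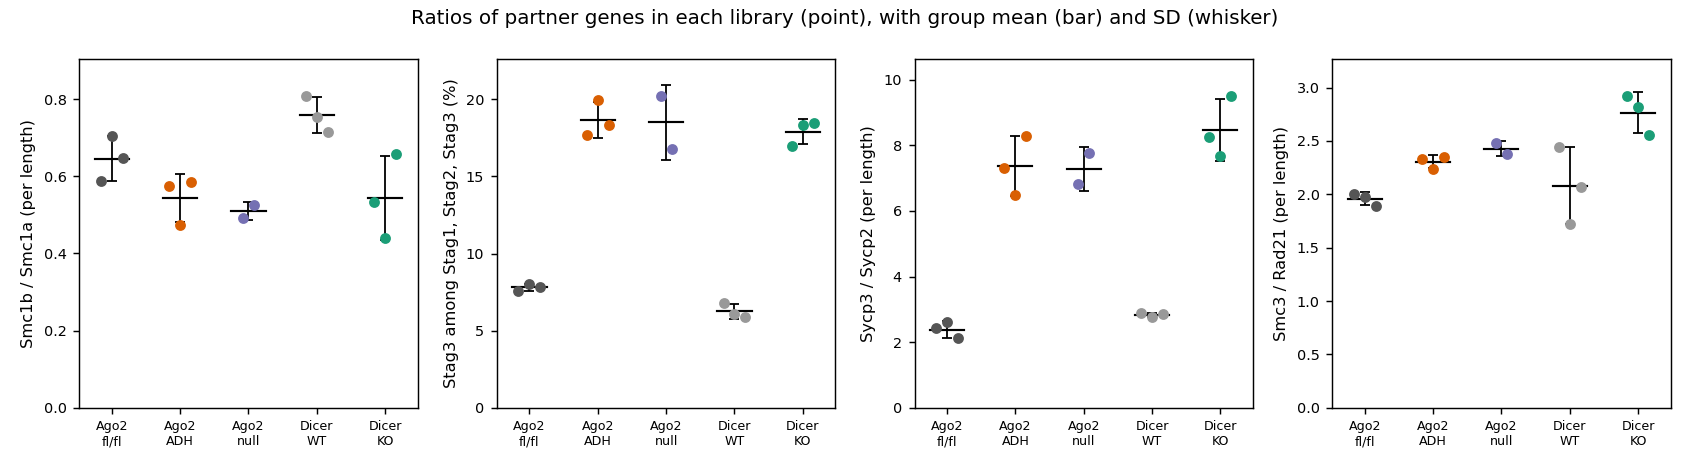
Ratios of partner genes per length in each library (points), with the group mean (bar) and SD (whisker), each axis from 0. The Stag3 share of the 3 STAG genes and the Sycp3 to Sycp2 ratio separate all mutant libraries from all controls, while the Smc1b to Smc1a and Smc3 to Rad21 ratios differ less.

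Other genes of the meiotic chromosome, 53 in all, were listed by function, of which 51 had a row. Over these lists 17 of 46 tested genes passed in Ago2 ADH (8 higher, 9 lower), 18 of 47 in Ago2 null (8 higher, 10 lower) and 16 of 46 in Dicer KO (7 higher, 9 lower), shares near the backgrounds given above.

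Among 12 cohesin regulators and mitotic cohesin subunits, 3 passed in Ago2 ADH (1 higher, 2 lower), 5 in Ago2 null (1 higher, 4 lower) and 5 in Dicer KO (all lower). Stag2, a mitotic STAG subunit, was at 31.9, 33.1 and 32.6 CPM in Ago2 fl/fl and 20.6, 15.6 and 22.5 in Ago2 ADH, a log2 fold change of -0.73 (SE 0.11, edgeR FDR 1.15e-05). It was -0.53 in Ago2 null and -0.84 in Dicer KO, both past the threshold. Esco1, an acetyltransferase that locks cohesin onto chromatin, was lower, with log2 fold changes of -0.58 in Ago2 ADH, -0.65 in Ago2 null and -0.45 in Dicer KO. Stag1, the other mitotic STAG subunit, moved in opposite directions. It was at 37.5, 36.2 and 36.9 CPM in Ago2 fl/fl, 50.0, 50.7 and 42.9 in Ago2 ADH and 46.1 and 52.6 in Ago2 null, but at 44.3, 37.9 and 44.8 in Dicer WT and 30.5, 34.7 and 32.0 in Dicer KO. Its log2 fold change was 0.39 (SE 0.07), 0.42 (SE 0.08) and -0.37 (SE 0.09), and the interaction of the 2 series, Ago2 ADH effect minus Dicer KO effect, passed (0.71, SE 0.12, edgeR FDR 4.62e-04).

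Among 6 genes for the protection and cleavage of cohesin, 4 passed in Ago2 ADH and in Ago2 null (1 higher, 3 lower in each) and 3 in Dicer KO (1 higher, 2 lower). Sgo2a, the shugoshin that shields REC8 from separase, was at 93.7, 98.1 and 93.6 CPM in Ago2 fl/fl, 60.2, 56.9 and 55.2 in Ago2 ADH, and 52.1 and 51.2 in Ago2 null, well below the controls. The log2 fold change was -0.72 (SE 0.06, edgeR FDR 5.48e-09) for Ago2 ADH, -0.88 for Ago2 null and -0.62 for Dicer KO, and all 3 passed. Its relative Sgo1 had -0.53, -0.59 and -0.37, which passed too. Pttg1, which encodes the separase inhibitor securin and was the most abundant of the list, rose by 0.24, 0.29 and 0.28. Espl1, separase itself, did not pass in any of the 3 comparisons.

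Of 9 other synaptonemal complex genes, 6 were tested in the mutant comparisons, and 3 passed in Ago2 ADH, 2 in Ago2 null and 3 in Dicer KO, all higher. Hormad1, an axis protein that monitors pairing, was at 0.704, 0.628 and 0.783 CPM in Ago2 fl/fl against 4.03, 3.18 and 3.40 in Ago2 ADH, a log2 fold change of 2.34 (SE 0.24, edgeR FDR 1.24e-07). It was 2.19 in Ago2 null and 1.32 in Dicer KO, where the lowest KO library (12.3 CPM) lay just above the highest WT library (11.9 CPM). Hormad2, its relative, had log2 fold changes of 0.82, 1.00 and 1.13, all past the threshold, and the call in Ago2 null ended without Ago2 null replicate 2 (FDR 0.0302), with a single Ago2 null library in the fit. Tex12, a central element gene, had 0.65, 0.30 and 0.86, of which the Ago2 null value did not pass (edgeR FDR 0.0106).

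Of 20 recombination genes, 17 or 18 were tested, and 5 passed in Ago2 ADH (2 higher, 3 lower), 6 in Ago2 null (4 higher, 2 lower) and 5 in Dicer KO (3 higher, 2 lower). Rec114, which helps the enzyme SPO11 make the DNA breaks of recombination, was at 7.86, 8.18 and 6.72 CPM in Ago2 fl/fl, 36.6, 40.4 and 36.5 in Ago2 ADH, and 37.4 and 40.8 in Ago2 null. Its log2 fold change was 2.33 (SE 0.09, edgeR FDR 1.77e-13) in Ago2 ADH, 2.36 in Ago2 null and 1.49 in Dicer KO. Ccnb1ip1, a ubiquitin ligase of crossover sites, rose by 1.18, 1.51 and 1.22, and Tex11, a crossover gene on the X chromosome, had -0.57, -0.21 and -0.46, of which the first passed. Of 6 genes that attach telomeres to the nuclear envelope, 5 were tested, with 2 called in Ago2 ADH, 1 in Ago2 null and 0 in Dicer KO. In Dicer KO 3 of these 5 had an unadjusted edgeR p under 0.05, as did 9722 of all 18570 transcripts tested. Sun1, a nuclear envelope protein that anchors the telomeres, had log2 fold changes of -0.28, -0.36 and -0.26, of which the Dicer KO value did not pass (edgeR FDR 0.0175) and the Ago2 ADH value did not pass without Ago2 ADH replicate 3 (FDR 0.0128).

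**Figure D4:**
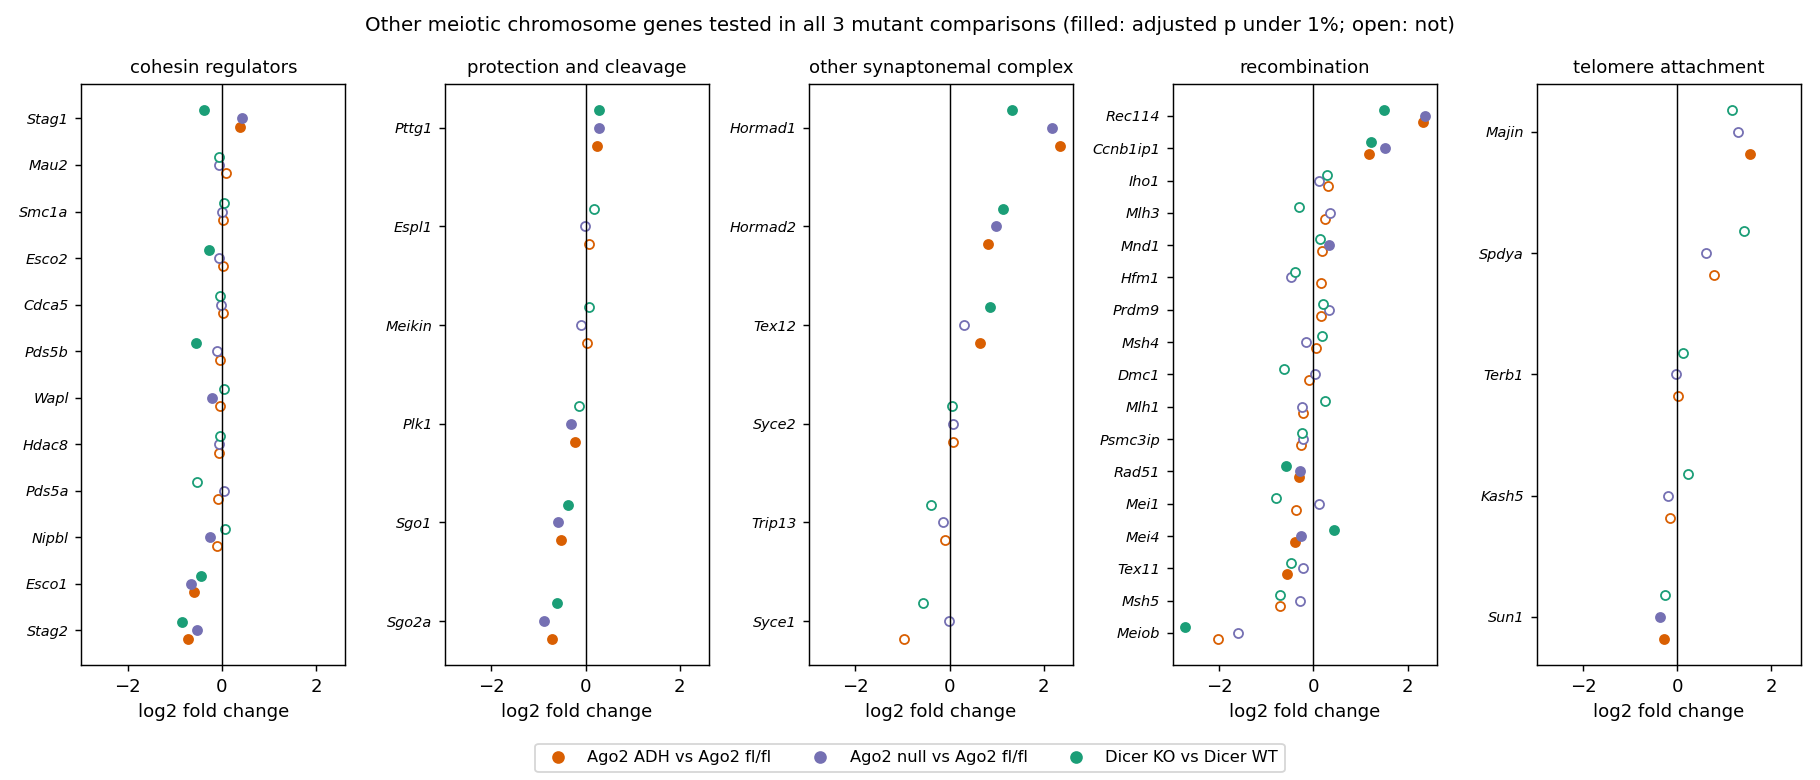
Log2 fold change over the control group (horizontal axis) of the other meiotic chromosome genes that were tested in all 3 mutant comparisons, by list, filled where the FDR passed 1%. Rec114 and Hormad1 lie farthest to the right, and Stag1 lies on opposite sides of 0 in the Ago2 and Dicer series.

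Across the 14 libraries the log2 CPM of Sycp1 and Sycp3 had a Pearson r of 0.971, that of Smc3 and Sycp2 0.965, and that of Stag3 and Rad21 -0.936. These values describe libraries that share genotypes and series. Among 10227 other genes with a mean count of at least 100, the pattern most like that of Stag3 was Plch1 (r = 0.993). It was Csnk1g3 for Smc1b (r = 0.959), Zfp386 for Smc3 (r = 0.985), Mtmr2 for Rad21 (r = 0.988), Prkx for Sycp1 (r = 0.978), Cdk8 for Sycp2 (r = 0.978) and Zfp979 for Sycp3 (r = 0.987). Such likeness was common, with 169 genes at an r of at least 0.9 for Smc1b and 616 for Rad21.

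The libraries held 29380403 to 58285057 counted reads, and the Dicer KO libraries were the shallowest. All 10 oocyte markers were present in every group. The summed CPM of 11 granulosa and cumulus cell markers ran from 72.5 to 78.8 in Ago2 fl/fl, 59.6 to 66.4 in Ago2 ADH, 53.4 to 57.0 in Ago2 null, 89.5 to 98.4 in Dicer WT and 75.2 to 77.8 in Dicer KO. Most of it came from Cyp19a1 and Nr5a2, picked out after the values were seen, and the other 9 together ran from 3.89 to 4.63 CPM in Ago2 fl/fl, 4.28 to 6.09 in Ago2 ADH, 2.66 to 3.90 in Ago2 null, 2.75 to 3.68 in Dicer WT and 1.48 to 2.50 in Dicer KO. The lower sum in Ago2 ADH thus rested on that pair of genes. No blood marker held more than 3 reads in a library. The part of these markers in the results was not tested. Ago2 was at 24.0 to 25.6 CPM in Ago2 fl/fl, 12.7 to 14.2 in Ago2 ADH and 5.41 to 7.33 in Ago2 null, while Dicer1 was higher in Dicer KO (1632 to 1886 CPM) than in Dicer WT (734 to 767). Dicer1 was also higher in Ago2 ADH (log2 fold change 0.67) and in Ago2 null (0.59). Ago2 was also lower in Dicer KO (-0.56), and all 3 values passed the threshold. Counts over a whole transcript include the exons that Cre leaves in place, so the Dicer1 value in Dicer KO does not check the label. By the lane marks on the deposited libraries each Ago2 genotype was sequenced in a lane of its own, and lane and genotype cannot be told apart.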

How the data were processed

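Amplified cDNA (NuGEN Ovation V2) from pooled oocytes was sequenced without molecular identifiers. The authors aligned paired-end reads with TopHat to mm10, with at most 100 alignments kept for each read, and ran htseq-count in its intersection-strict mode, ignoring strand. The paper lists separate alignment options for reads of different lengths, with different limits on mismatches. It does not say which libraries had which read length. The submitters' processing notes name TopHat2 2.0.7, HTSeq 0.6.1 and DESeq 1.10.0. The deposited values are raw counts per RefSeq transcript. A read counts on every transcript that contains it, and multiply aligned reads are tallied apart.

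Of 26495 transcripts, 26077 took a symbol from RefSeq, 117 from GENCODE and 301 had none. The transcript with the highest mean count stands for a gene. Each comparison used the libraries of its groups and edgeR 4.0.16 with R 4.3.3 (filterByExpr with minimum count 10 and minimum total 15, TMM, quasi-likelihood test, Benjamini-Hochberg adjustment over all transcripts, FDR 1%), and the interaction on 4 groups. The standard error is the absolute log2 fold change divided by the square root of F. DESeq2 1.42.0 was an alternative. Lengths are those of GENCODE transcripts, known for 98.2% of transcripts. The fit was tested on simulated data. Libraries of a group differed by more than counting noise (chi-square per degree of freedom 6.35 to 14.3).

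The genes and lists were chosen with earlier results of these data known. Named in the text are all of these genes, from each list up to 3 called genes with the largest change in Ago2 ADH and a mean count of at least 100, and for each member gene the most alike other gene. Mei4, Espl1, Chpt1 and the marker genes named were added after their values were seen. Mau2, Syce2, Six6os1 and Rnf212 are named only for the motif in their windows.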

Additional observations from a re-analysis of the deposited data

Results flagged for a closer look

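For 3 of the 47 tested genes of the other meiotic lists the Ago2 ADH and Dicer KO effects differed by edgeR's interaction test. Beside them, 3.55% of all 19500 transcripts passed, and whether the lists differ from that share was not tested. Lane and genotype cannot be told apart in the Ago2 series, so these differences cannot be assigned to AGO2 or DICER. For Stag1 the difference (Ago2 ADH effect minus Dicer KO effect, log2) was 0.71 (SE 0.12, edgeR FDR 4.62e-04), and it passed under all 22 alternatives run, with FDR from 2.29e-07 to 0.00252. The Dicer KO effect of Stag1 alone passed in 14 of 16 alternatives and missed the threshold without Dicer WT replicate 1 (FDR 0.0126) and without Dicer WT replicate 3 (FDR 0.0150).

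For Mei4, a partner of REC114 in making meiotic breaks, the difference was -0.87 (SE 0.10, edgeR FDR 7.11e-06), past the threshold in all 22 alternatives. Mei4 was at 72.9, 70.1 and 64.4 CPM in Ago2 fl/fl, 50.7, 54.5 and 52.4 in Ago2 ADH, 52.2, 55.6 and 56.6 in Dicer WT and 80.4, 67.3 and 71.6 in Dicer KO, so it was lower in every Ago2 ADH library and higher in every Dicer KO library. For Rec114, higher in both mutants, the difference was 0.78 (SE 0.19, edgeR FDR 0.00989), and it passed in only 9 of 22 alternatives, with FDR up to 0.0431 (without Dicer WT replicate 2).

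The tally of alignments that were not unique, which no comparison above uses, stood higher in the mutants. It came to 1.61 ± 0.0439 per transcript count (SD, n = 3) in Ago2 ADH and 1.61 ± 0.0632 (n = 2) in Ago2 null, against 0.572 ± 0.0213 in Ago2 fl/fl, and to 1.03 ± 0.139 in Dicer KO against 0.458 ± 0.0747 in Dicer WT. It counts alignments, of which a read may have up to 100, so it is not a share of reads, and its part in the results was not tested.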

How the results depend on the processing

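Log2 fold changes of the 7 genes kept their direction wherever they were called, and in 575 of 588 cases (a gene, a comparison and a setting) their side of the threshold. Part of this count was fixed in advance. An FDR of 5% cannot lose a call, and each of these genes has 1 transcript, so summing transcripts left its counts unchanged. The cases also include the Ago2 ADH against Ago2 null comparison and the interaction, where no setting called any of these genes. Leaving out 1 library in turn gave 6 to 6 called genes in Ago2 ADH, 6 to 7 in Ago2 null and 4 to 6 in Dicer KO, and 0 in both other comparisons. Without 1 Ago2 null library the other is assumed to vary like the other group. Smc3 in Dicer KO passed without Dicer WT replicate 2 (FDR 0.00753), without Dicer KO replicate 1 (FDR 0.00426), with no filter, with all groups in one fit and with library totals in place of TMM, a setting chosen after seeing the data. With a replicate block 6, 6 and 5 genes passed in the 3 mutant comparisons, Smc1b in Ago2 null being the call lost (FDR 0.0158), and 13 rather than 18 listed genes passed in Ago2 null. Libraries of the same number did not deviate together (r of -0.17 to 0.07). With 2 or 3 pairs per comparison, this cannot decide whether libraries of the same number were collected together. Summing transcripts put the Stag3 share of the STAG genes at 5.40% in Ago2 fl/fl, 15% in Ago2 ADH, 14.6% in Ago2 null, 4.05% in Dicer WT and 12.7% in Dicer KO, because both Stag2 transcripts count the same reads (within a ratio of 1.003). Among all transcripts the interaction called 234 higher and 458 lower, and 346 and 351 with library totals.

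Rec8 held too few reads to be tested, and the reason for so few was not tested. On simulated counts with the Ago2 ADH design, 99 of 100 transcripts changed by a log2 of 1 were recovered and 40 of 100 changed by 0.5. Far fewer transcripts were changed there than passed in the real comparison (7663 of 18835), so the adjusted threshold was stricter. The spread between simulated libraries was also set by a formula. These rates therefore do not give the power of the real comparison, where Pttg1 was called at 0.24. A missed call on a small change does not show that there was none.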
